A study of Mus musculus with 12 samples.

Results

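The genes of the G1/S transition and of DNA replication were examined in CD8+ T_prog_ cells with and without UTX. The set holds 38 genes chosen by name for their roles in starting and carrying out DNA synthesis, of 25860 genes listed in the RNA-seq table. All 38 were listed, and all 38 were among the 14459 genes that passed the filter on low values, a mean normalised count of at least 10. Bulk RNA was sequenced from progenitors of the pancreatic lymph node, with 3 libraries of *NOD-TCR 8.3 WT* and 3 of *NOD-TCR 8.3 UTX TCD* animals, and ATAC-seq, which maps open chromatin, was run on 3 libraries of each genotype. Both genotypes are on the nonobese diabetic background, carry the NY8.3 T cell receptor transgene against the β cell antigen IGRP and have floxed *Kdm6a* alleles, the X-linked gene for UTX. The UTX TCD mice also carry Cre under the *Lck* promoter, which deletes in T lineage cells from the thymus onward, and the WT mice are Cre-negative littermates. Only females were used, and the age of the mice behind these libraries is not given in the sources used here. The published methods and legends give as many mice as libraries per genotype, the labels give only a replicate number, and p values measure the spread between these libraries. The labels describe the sorted cells as Ly108 positive and CXCR6 negative, and the methods of the study as Ly108+CD39-.

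Cells commit to division late in G1. Cyclin E with CDK2, and upstream of it the D-type cyclins, inactivate RB proteins, which frees E2F1, E2F2 and E2F3 to switch on the genes for replication, while E2F7 and E2F8 later turn the same genes down. Origins are licensed when CDC6 and CDT1 load the MCM helicase, fired when CDC45 and GINS join it, and copied by polymerases that PCNA holds on the DNA. In CD8+ T cells this programme follows antigen receptor and cytokine signals, and stem-like progenitors are known as cells that divide slowly and renew themselves.

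The labels were checked first. *Kdm6a* stood at 28365, 28949 and 29172 normalised counts in WT replicates 1, 2 and 3 and at 24159, 24792 and 24579 in UTX TCD replicates 1, 2 and 3, a normalised count being the reads of a gene divided by 1 size factor per library. Its log2 fold change (UTX TCD minus WT) was -0.23 (SE 0.04, limma adjusted p = 0.00114), and every UTX TCD library lay below every WT library. Counts over the whole gene do not resolve the floxed exons, so this value checks the labels only in part. The defining markers of the labelled cell type were abundant, and none of the 6 CD8+ T cell markers was called. *Cd8a* ranged from 270012 to 313000.0 over the 6 libraries, *Cd3e* from 133010.0 to 165614 and *Tcf7*, the gene for TCF1, from 220872 to 244276. *Cd8b1* was at 148808, 138851 and 136749 against 121688, 111349 and 95739.8, lowest in UTX TCD replicate 3 (log2 fold change -0.37, limma adjusted p = 0.00634). For *Cd3d* (-0.28) and *Cd3g* (-0.26) too every UTX TCD library lay below every WT library, while *Trac* changed by -0.01, *Cd8a* by 0.13 and *Cd3e* by 0.17. The part of these marker changes in the results was not tested. The sort marker *Slamf6*, which encodes Ly108, was at 27732, 34096 and 23305 in the WT and 36665, 30979.8 and 35425 in the UTX TCD libraries (log2 fold change 0.29, adjusted p = 0.089), and *Entpd1*, which encodes CD39, was at 10.9, 29.6 and 11.4 against 4.50, 12.8 and 4.42. *Cxcr6* RNA was present despite the labelled gate, at 12757, 9619 and 13724 in the WT and 5286, 5994 and 5695 in the UTX TCD libraries, and fell by 1.07 on the log2 scale (adjusted p = 0.000131). The libraries held between 61512402 and 193568919 counted reads, UTX TCD replicate 1 being the shallowest, and no member had fewer than 102 reads in any library.

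Of the 38 genes, 20 were called higher without UTX and 0 lower, at a Benjamini-Hochberg adjusted p under 0.05 over all genes tested and a log2 fold change beyond 0.5 either way. At an unadjusted p under 0.05 limma put 2 members lower, *Ccne1* and *Cdt1*, and edgeR and DESeq2 also called 0 lower. Over all genes tested, 10.5% were called higher and 7.05% lower. At an adjusted p under 0.05 with no limit on the fold, 30 members were higher and 1, *Ccne1*, was lower, against 20.2% and 20.5% of all genes. For 31 members the lowest UTX TCD library exceeded the highest WT library, an ordering seen in that direction for 25.8% of all genes, and for 4 members every UTX TCD library lay below, as for 26.1% of all genes. The median log2 fold change of the set was 0.53, and that of all genes tested was -0.000181. Added together, the 38 genes came to 184749, 198852 and 190971 normalised counts in the WT and 242693, 250689 and 256992 in the UTX TCD libraries, so that the lowest UTX TCD sum exceeded the highest WT sum. Bulk RNA cannot tell a larger share of cells that express these genes from more RNA per cell. The genes were tested with limma on log2(normalised count + 1), and for a single gene the smallest exact permutation p that 3 against 3 libraries can give is 0.1.

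**Figure D1:**
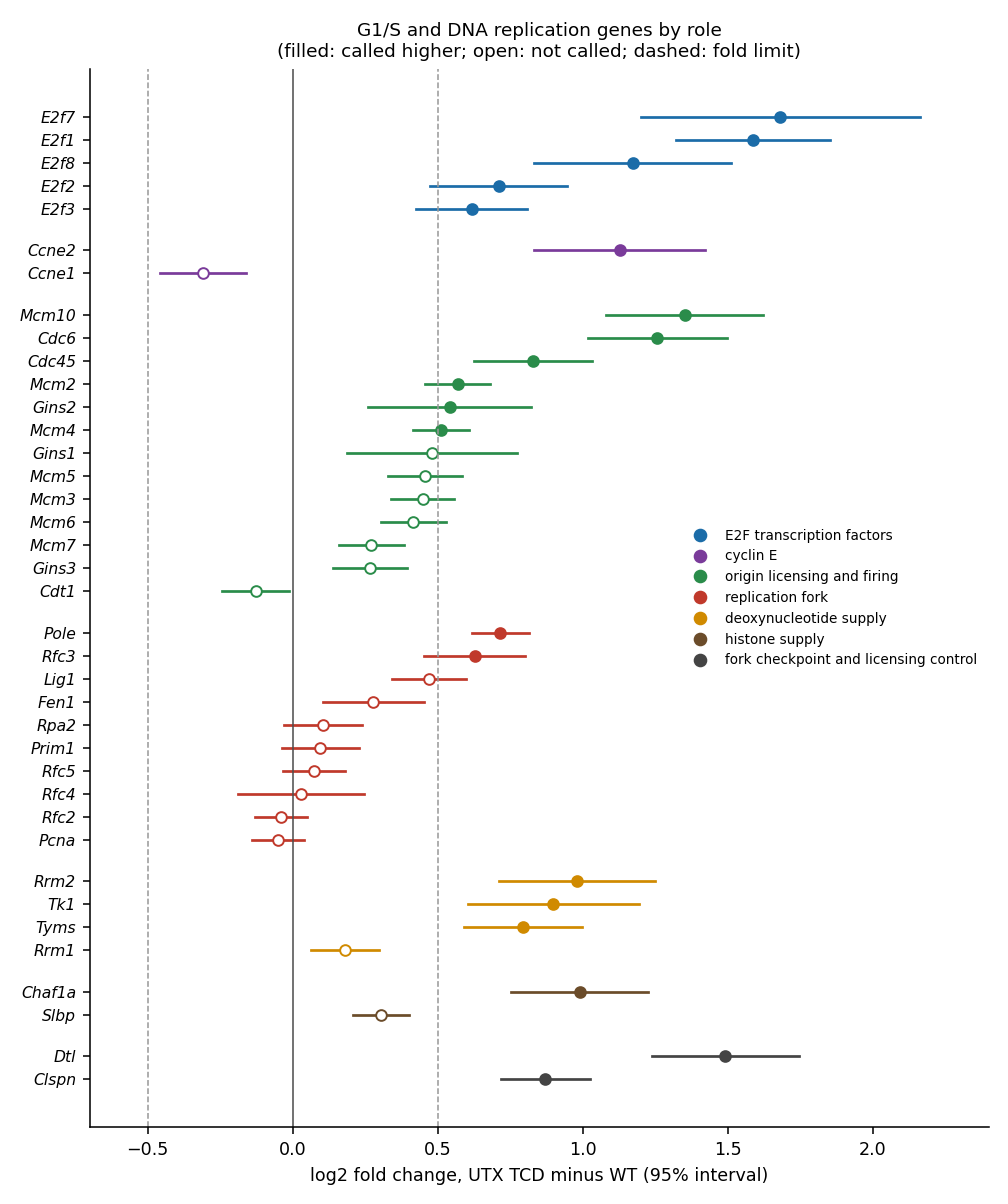
Log2 fold change of each of the 38 genes, UTX TCD minus WT, with its 95% interval from limma on 3 libraries per genotype, ordered by role (filled points were called higher and dashed lines mark the fold limit of 0.5). All 5 E2F genes lie beyond the limit, whereas most replication fork genes lie between 0 and 0.5.

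All 5 E2F genes rose. *E2f1*, the activator most closely tied to S phase entry, lies at chr2:154559407-154569892 (mm10) and stood at 414, 540.0 and 512 normalised counts in WT replicates 1, 2 and 3 and at 1341, 1566 and 1482 in UTX TCD replicates 1, 2 and 3 (values are given in this order throughout, WT first), giving a log2 fold change of 1.59 (standard error, SE, 0.12, 95% interval 1.32 to 1.85, limma adjusted p = 1.55e-05). The largest change of the 38 was that of the repressor *E2f7* (chr10:110745439-110787384), at 101, 123 and 86.9 in the WT and 342, 257 and 414 in the UTX TCD libraries (log2 fold change 1.68, SE 0.21, adjusted p = 0.000309). Its partner repressor *E2f8* was at 537, 610.1 and 451 against 1189.9, 1003 and 1418 (log2 fold change 1.17, SE 0.15). For both repressors UTX TCD replicate 3 was the highest library and replicate 2 the lowest of its group, yet neither group overlapped the other. *E2f2* read 3479, 3339 and 3489 in the WT and 4973, 5234 and 6813 in the UTX TCD libraries, giving a log2 fold change of 0.71 (SE 0.10), and *E2f3* read 1719, 1909 and 1760.2 against 2641, 2548 and 3098, a change of 0.62 (SE 0.08). So activators and repressors of the same targets were higher together, while *E2f4*, a repressor kept in resting cells, had a log2 fold change of 0.08. The log2 ratio of *E2f1* to *E2f4* within a library was -4.73 ± 0.22 in WT and -3.23 ± 0.15 in UTX TCD cells (SD, n = 3 each, two-sided exact permutation p = 0.1). Per kilobase of annotated exon, *E2f2* was the most abundant of the 5 in both genotypes (725 and 1197 normalised counts per kb), and *E2f7* the least (13.1 and 42.8).

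The cyclin E genes moved apart. *Ccne2* was at 221, 272 and 214 in the WT and 526, 497 and 515 in the UTX TCD libraries, giving a log2 fold change of 1.13 with an SE of 0.13 (adjusted p = 0.000184). *Ccne1* was at 3288, 3219 and 2894 against 2589, 2548 and 2436, a log2 fold change of -0.31 (95% interval -0.46 to -0.16, adjusted p = 0.00498), which passed the test without reaching the fold limit. Both genes encode regulatory subunits of CDK2, and *Ccne1* kept the higher level per kilobase in both genotypes, at 1567 and 1262 normalised counts per kb against 73.6 and 160.3 for *Ccne2*. The log2 ratio of *Ccne2* to *Ccne1* within a library was -3.90, -3.56 and -3.76 in WT and -2.30, -2.36 and -2.24 in UTX TCD replicates, with means of -3.74 ± 0.17 and -2.30 ± 0.06 (SD, n = 3 each, two-sided exact permutation p = 0.1, the smallest this design allows, and 0.1 after Benjamini-Hochberg adjustment over 4 such ratios, which were chosen after the values were seen).

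Among the 13 genes of origin licensing and firing, 6 were called higher, 12 had an adjusted p under 0.05 in that direction, and the median log2 fold change was 0.48. The largest changes among the 13 were those of *Mcm10*, *Cdc6* and *Cdc45*. *Mcm10*, which helps the loaded helicase to unwind, lies at chr2:4989714-5012791 and was at 620.1, 763 and 715 in the WT and 1665, 1619 and 2085 in the UTX TCD libraries (log2 fold change 1.35, SE 0.12, adjusted p = 3.89e-05), and the loader *Cdc6* (chr11:98907801-98923940) was at 868, 1047 and 924 against 2056, 2157 and 2587 (log2 fold change 1.26, SE 0.11, adjusted p = 3.05e-05). *Cdc45*, the helicase cofactor that marks a firing origin, was at 971, 1177 and 1009 against 1802, 1808 and 1976 (log2 fold change 0.83, SE 0.09). For all 3 genes UTX TCD replicate 3 was the highest library, and the lowest UTX TCD library was well above the highest WT library. By contrast *Cdt1*, which loads the helicase together with CDC6, was at 4894, 4945 and 5304 against 4503, 4708 and 4646, a log2 fold change of -0.13 (95% interval -0.24 to -0.01, adjusted p = 0.0762) that did not pass the test.

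The 6 subunits of the replicative helicase ring, *Mcm2* to *Mcm7*, were all higher at an adjusted p under 0.05, with log2 fold changes from 0.27 for *Mcm7* to 0.57 for *Mcm2*, and 2 of them passed the fold limit. *Mcm2* was at 8389, 9208 and 8542 in the WT and 12723, 13368 and 12658 in the UTX TCD libraries (SE of the change 0.05), and *Mcm4* at 17444, 18252 and 18038 against 24626, 25735 and 26204 (log2 fold change 0.51, SE 0.04). Of the other subunits 3 lay just under the limit, *Mcm5* at 0.45, *Mcm3* at 0.45 and *Mcm6* at 0.42, so for these 5 subunits the split between called and not called falls inside a narrow band of values. In WT cells the ring subunits spanned 2585 (*Mcm2*) to 4998 (*Mcm6*) normalised counts per kb, far above *Mcm10* at 141 and *Cdc6* at 198. The log2 ratio of *Mcm10* to *Mcm7* within a library was -4.30 ± 0.10 in WT and -3.22 ± 0.20 in UTX TCD cells (SD, n = 3 each, exact permutation p = 0.1).

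The GINS complex travels with the helicase, and its subunits did not move together. *Gins2* was at 415, 443 and 483 in the WT and 603, 601 and 757 in the UTX TCD libraries, giving a log2 fold change of 0.54 with an SE of 0.12 (adjusted p = 0.00766), and was the called member with the highest adjusted p. *Gins1* had a log2 fold change of 0.48 (95% interval 0.19 to 0.77) and *Gins3* of 0.27 (0.14 to 0.39). Neither reached the fold limit. The fourth subunit, *Gins4*, which is outside the 38, was at 5488, 5166 and 5259.9 against 4501, 4235 and 4046, a log2 fold change of -0.32 (limma adjusted p = 0.00187). *Mcm4* and *Gins2* fell below the fold limit when WT replicate 1 was left out, at 0.49 for each, or UTX TCD replicate 3, at 0.49 and 0.43. The adjusted p of *Gins1* rose to at most 0.0598 when single libraries were left out.

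**Figure D2:**
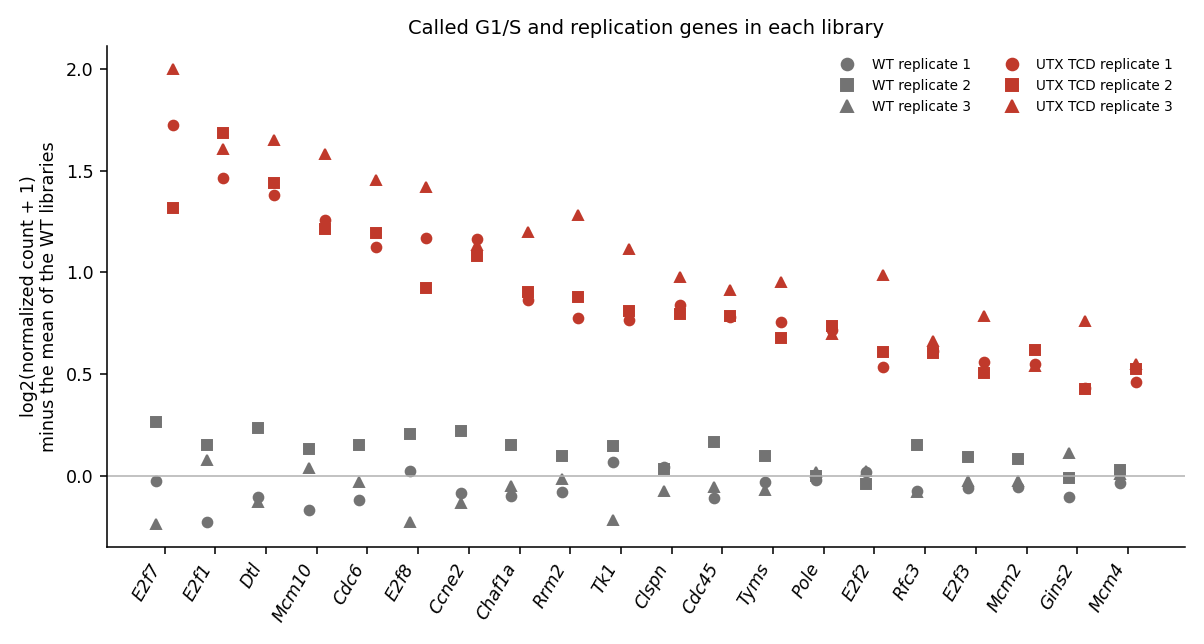
Log2(normalised count + 1) of the 20 called genes in each of the 6 libraries, with the mean of the 3 WT libraries of each gene set to 0, and 1 symbol per replicate number. The UTX TCD libraries lie above the WT libraries for every gene shown, and UTX TCD replicate 3 is the highest library for 16 of the 20.

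The replication fork genes had the lowest median change of the roles. Of 10, 2 were called higher, and the median was 0.10. *Pole*, the catalytic subunit of the leading-strand polymerase, was at 4457, 4519.7 and 4579.6 in the WT and 7414, 7527 and 7321 in the UTX TCD libraries, which differed little within each group (log2 fold change 0.72, SE 0.04, adjusted p = 4.69e-06). *Rfc3*, a subunit of the clamp loader, was at 1536, 1798 and 1531 against 2477, 2456 and 2559 (log2 fold change 0.63, SE 0.08). The flap nuclease *Fen1* (0.28) and the ligase *Lig1* (0.47), which finish Okazaki fragments, passed the test below the fold limit.

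The other 6 fork genes did not pass the test. *Pcna*, the sliding clamp, was at 15770.2, 16453 and 15944 in the WT and 15393, 15345 and 15764 in the UTX TCD libraries, giving a log2 fold change of -0.05 (95% interval -0.14 to 0.04, adjusted p = 0.336) whose sign turned to 0.01 when the libraries were scaled to the same sum. It was the most abundant of the 38 genes per kilobase, at 10577 and 10211 normalised counts per kb. The clamp loader subunits differed among themselves. *Rfc5* had a log2 fold change of 0.07 (-0.04 to 0.18), *Rfc4* of 0.03 (-0.19 to 0.24), whose sign turned without WT replicate 1 or UTX TCD replicate 3, and *Rfc2* of -0.04 (-0.13 to 0.05), whose sign turned under the same-sum scaling. For the primase subunit *Prim1* the value was 0.10 (-0.04 to 0.23) and for the single-strand binding subunit *Rpa2* 0.10 (-0.03 to 0.24). Over these 6 and *Cdt1* the 95% intervals reached from -0.24 to 0.24, which leaves changes as large as the fold limit outside. The log2 ratio of *Mcm2* to *Pcna* within a library was -0.88 ± 0.04 in WT and -0.26 ± 0.06 in UTX TCD cells (SD, n = 3 each, exact permutation p = 0.1).

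Deoxynucleotide supply showed 3 calls of 4. *Rrm2*, the subunit whose abundance limits ribonucleotide reductase in S phase, was at 1931, 2183 and 2017 in the WT and 3498, 3756 and 4959 in the UTX TCD libraries (log2 fold change 0.98, SE 0.12, adjusted p = 0.000248). Both thymidylate routes were higher as well. *Tk1*, the salvage kinase, was at 612, 647 and 503 against 994, 1023 and 1267 (log2 fold change 0.90, SE 0.13), and *Tyms*, thymidylate synthase, at 1105, 1207 and 1074 against 1903, 1801 and 2183 (log2 fold change 0.79, SE 0.09). UTX TCD replicate 3 was the highest library for each of the 3. The large subunit *Rrm1*, which is not confined to S phase, had a log2 fold change of 0.18 (95% interval 0.06 to 0.30, adjusted p = 0.0224), and its adjusted p rose to at most 0.0833 when single libraries were left out. *Fen1* reached 0.0753 in the same way.

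Of the histone supply genes, *Chaf1a*, the large subunit of the chaperone that places histones behind the fork, was at 1151, 1370.3 and 1191 in the WT and 2247, 2309 and 2832 in the UTX TCD libraries (log2 fold change 0.99, SE 0.10, adjusted p = 0.000115). *Slbp*, which binds histone mRNA, had a smaller change of 0.30 (95% interval 0.21 to 0.40). The 2 genes that guard the fork and limit licensing were both called. *Dtl*, the substrate receptor through which CDT1 is degraded once S phase begins, lies at chr1:191537356-191575544 and was at 1015, 1285 and 999.8 against 2845, 2968 and 3435 (log2 fold change 1.49, SE 0.11, adjusted p = 1.63e-05), the third largest change of the 38. *Clspn*, which carries the checkpoint signal from ATR to CHEK1, was at 2066, 2057 and 1905 against 3595, 3480.1 and 3960.0 (log2 fold change 0.87, SE 0.07, adjusted p = 2.06e-05).

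The changes were unequal along the range of abundance. Of the 19 members with the lower mean level over the 6 libraries, 15 were called and the median log2 fold change was 0.87, whereas of the 19 with the higher level 5 were called and the median was 0.30. Across the 38 genes the Spearman correlation of log2 fold change with mean level per kilobase was -0.72, and with the mean level itself -0.60, against -0.14 across all 14459 genes tested. These are descriptions across genes, which share the same 6 libraries and are not independent replicates.

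**Figure D3:**
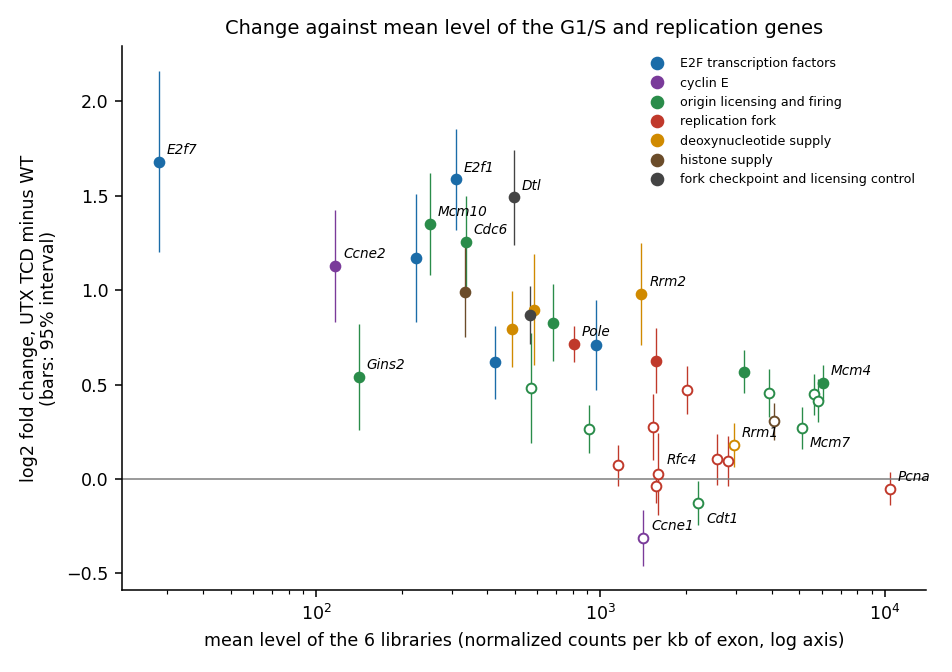
Log2 fold change (UTX TCD minus WT, with its 95% interval) of the 38 genes against their mean level over the 6 libraries in normalised counts per kb of annotated exon on a log axis. Filled points were called higher, and the changes are smaller at the abundant end, where *Pcna* lies at -0.05.

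Genes that work beside the 38 were counted in the same way from lists chosen by function. Of 33 other origin and fork factors, 6 were called higher and 0 lower, and 12 were higher and 5 lower at an adjusted p under 0.05. The 4 largest changes were in *Dna2*, a nuclease of Okazaki fragments, at 422, 457 and 402 in the WT and 996, 946 and 1131 in the UTX TCD libraries (log2 fold change 1.26), in the origin firing factor *Ticrr* (1.06), in *Gmnn*, the inhibitor of CDT1 (1.03), and in *Orc1*, the origin recognition subunit that is made anew in each cycle (1.02). The 5 lower genes were *Rpa1* (-0.36), *Gins4*, *Rpa3* (-0.31), *Pole2* (-0.31) and *Pole4* (-0.30), of which *Rpa1* and *Rpa3* encode partners of *Rpa2*, and *Pole2* and *Pole4* of *Pole*. The median of the list was 0.04. None of the 8 other nucleotide supply genes was called (4 higher and 1 lower at an adjusted p under 0.05, range -0.21 to 0.43).

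Behind the fork, 5 of 10 chromatin genes were called higher and 0 lower, led by *Pclaf*, the PCNA-associated factor (1.00), *Uhrf1*, which directs maintenance methylation (0.98), *Chaf1b*, the partner of *Chaf1a* (0.69), and the remodeller *Hells* (0.69). Of 11 replication checkpoint genes 5 were called higher, among them the kinases *Chek1* (1.11) and *Wee1* (0.97) and the repair gene *Brca1* (0.64). Of 20 RB, other E2F, DREAM and cyclin-CDK2 genes 6 were called higher. Among them *Cdkn1a*, which encodes the CDK inhibitor p21, was at 29.7, 45.4 and 29.7 in the WT and 403, 305 and 435 in the UTX TCD libraries (log2 fold change 3.42, SE 0.23, adjusted p = 9.19e-06). An inhibitor of cyclin E and CDK2 was therefore higher alongside *Ccna2* (1.02), *Cdk2* (0.79) and *Tfdp1* (0.76), the last being the DNA-binding partner of the E2Fs.

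Genes of G2 and mitosis served as the nearest comparison. Of 26, 24 were called higher, all 26 were higher at an adjusted p under 0.05, and the median log2 fold change was 0.85 against 0.53 for the G1/S and replication genes. *Mki67* was at 13571, 14836 and 13395 in the WT and 27436, 26909.6 and 34778 in the UTX TCD libraries (log2 fold change 1.08), and *Top2a* at 7507, 9071 and 7685 against 16711, 17179.5 and 21824 (1.19). *Cenpf* (1.17) and *Ube2c* (1.16) were the next largest after *Top2a*. The sum of the 26 genes was 43967, 48496 and 44538 in the WT and 81435, 82635 and 107463 in the UTX TCD libraries, with UTX TCD replicate 3 the highest. Whether the 2 lists differ in their change was not tested, since genes of a list are not replicates.

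UTX TCD replicate 3 was the highest of its group for 22 of the 38 genes and for 16 of the 20 called, and without it 18 members were called. Markers of other cells were therefore read in every library. The 6 B cell markers summed to 2957, 2442 and 2805 normalised counts in WT and 1226, 1083 and 1008 in UTX TCD libraries, with *Cd79b* the most abundant. *Cd79b* fell by 1.98 on the log2 scale, whereas *Ms4a1* was at 5.94, 19.7 and 8.39 against 20.2, 29.6 and 73.0, highest in UTX TCD replicate 3. *Pax5* and *Ebf1* did not pass the filter, and *Pax5* was at 0 in UTX TCD replicate 2. The 4 germinal centre B cell markers summed to 5033, 5842 and 5146 against 4579.8, 4753 and 4859, most of it *Fas*, which T cells also express. In UTX TCD replicate 3 *Cd8a* stood at 270975. The part of such cells in the results was not tested.

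The 6 myeloid markers summed to 176, 184 and 150.2 in WT and 78.7, 96.9 and 89.9 in UTX TCD libraries, with *Lyz2* the most abundant over the 6 libraries and *Fcgr3* above it in WT replicates 1 and 3, *Fcgr3* and *Csf1r* called lower (-2.15 and -1.85), *Cd14* at 0 in WT replicate 2 and in UTX TCD replicates 2 and 3, and *Siglech* at 0 in UTX TCD replicate 3. The 3 NK cell markers summed to 13406, 15369.8 and 13193 against 19113, 19092 and 26857, nearly all of it *Eomes* (log2 fold change 0.62), which CD8+ T cells also express, while *Ncr1* was at 0 in WT replicates 2 and 3 and UTX TCD replicates 1 and 2. The 3 CD4 T cell markers summed to 449.7, 378 and 404 against 382, 364 and 346, most of it *Foxp3*, and *Cd4* was called lower (-0.74). The *Cd4* call was lost in 8 of the 17 alternative fits, and its limma adjusted p reached 0.101 when single libraries were left out. Of the 7 mediator or effector genes, *Havcr2* (-2.23) and *Cxcr6* were called lower, and the sum, most of it *Nkg7*, was 53784, 45859.7 and 57317 in WT and 37110.4, 39545 and 40123 in UTX TCD libraries. Of the 7 progenitor genes none was called, and the median log2 fold change was 0.29. The part of any shift in cell composition in the replication genes was not tested.

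Chromatin at these genes was read from the authors' list of 23932 differential ATAC-seq peaks, each 401 bases at the members, which holds only peaks that differed in their own comparison. For each peak the table gives the authors' mean log2 read concentration per genotype and no value per library, so differences carry no error and no test here. Of the 38 genes 19 had at least 1 listed peak, and 47.6% of all genes tested had one, so the members were close to the background. They had 29 peaks, of which 24 were higher and 5 lower in UTX TCD cells, compared with 16466 higher and 7466 lower in the whole list (82.8% and 68.8% higher). Of the 20 called genes 11 had a peak, and for 9 of these all listed peaks were higher, while 8 of the genes not called also had a peak. Counting only peaks whose means differed by over 0.5 left 22, of which 17 were higher (67.5% higher in the whole list), and counting only peaks within 1000 bases of a start left 5.

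Peaks at a transcription start were listed for 5 members, all higher in UTX TCD cells, as were 86.4% of all 3571 listed peaks within 1000 bases of a start. At *Tyms* the peak at chr5:30073372-30073772 (mm10) had an authors' mean of 8.03 in WT and 8.76 in UTX TCD cells, the largest of these differences at 0.74. At *E2f8* (chr7:48880895-48881295) the means were 10.42 in WT and 10.86 in UTX TCD cells, at *Clspn* (chr4:126556726-126557126) 10.13 in WT and 10.41 in UTX TCD cells, at *Gins3* (chr8:95633263-95633663) 9.40 in WT and 9.67 in UTX TCD cells, and at an internal start of *E2f2* (chr4:136180451-136180851) 11.47 in WT and 11.71 in UTX TCD cells. Of these genes only *Gins3* was not called. The other peaks lay in introns, between genes or at 1 transcript end. Both peaks of *E2f7* were higher, 1 upstream at chr10:110741929-110742329 and 1 in intron 4 at chr10:110760551-110760951, as were both of *E2f3* and the 4 of *E2f8*, 1 of which lies in *Nav2*. The 2 largest differences of the 29 were at genes that were not called, an intergenic peak given to *Rfc5* at chr5:117400155-117400555 (1.70) and one given to *Mcm5* at chr8:75132488-75132888 (1.48).

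The 5 peaks that were lower belonged to 4 genes. *Cdt1* had both of its peaks upstream and inside the read-through gene *Gm20388*, at chr8:122561176-122561576 and chr8:122564832-122565232, with differences of -0.68 and -0.58 between the authors' means. *Ccne1* had a lower peak beyond its end at chr7:38093227-38093627 (-0.55) and a higher one in intron 4 (0.32). *Cdc6*, whose RNA rose, had a lower peak in intron 10 at chr11:98918229-98918629 (-0.58) and a higher one in intron 2 (0.34). The lower peak given to *Gins2* (-0.64) lies inside *Gse1*. A peak was given to the gene of the nearest start, and 8 of the 29 lie only in the body of another gene. These are the 2 of *Cdt1* and the higher peak of *Gins2*, all in *Gm20388*, this lower one and those given to *E2f8* (in *Nav2*), *Mcm10* (in *Optn*), *Mcm6* (in *Dars*) and *Rrm1* (in *Stim1*).

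The genes were chosen by name and not by promoter sequence. Since E2Fs are known to switch on replication genes, E2F-type motifs are not independent of that choice. RefSeq promoters of GRCm38.p6, from 250 bases before to 50 bases after a start, were found for 32 of the 38 genes and numbered 38, since 5 genes had more than 1. *Ccne2*, *Mcm4*, *Gins1*, *Gins2*, *Rfc2* and *Pole* had no entry. For 8 of the 38 windows, among them those of *E2f1*, *Cdc6* and *Mcm7*, all bases before the RefSeq start lie inside the gene as GENCODE vM21 annotates it. The E2F-type motif TTTNNCGC, searched on both strands, was in 15 of the 38 promoters (39.5%) and in 5.17% of all 32851 promoters in the table. Its forms TTTCCCGC and TTTGGCGC, which are counted within it as well, were in 18.4% and 15.8% of the members' promoters and in 1.07% and 0.514% of all. CCAAT was in 63.2% against 37.4% and the GC box GGGCGG in 65.8% against 35.7%, whereas the CHR-type motif TTTGAA was in 18.4% against 17.9%. The median GC share was 57.8% for the members and 52.7% for all promoters.

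By gene, 8 of 16 called members with a promoter in the table and 7 of 16 not called held TTTNNCGC. By role it was in 7 of 11 promoters of origin licensing and firing genes, 2 of 11 of replication fork genes, 3 of 7 of E2F genes, 1 of 4 of deoxynucleotide supply genes and 2 of 2 of the fork checkpoint genes, and in none of the others. These are counts of letters in a window and were not tested.

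The members whose match lay wholly before the start, outside annotated exons and outside the gene itself are shown, because their changes span a wide range, from 0.42 for *Mcm6* to 1.68 for *E2f7*. The window of *Mcm10*, with the fourth largest change of the 38, held no TTTNNCGC, and that of *E2f1*, the second, lies inside its annotated exons, so the stretch before its GENCODE start was not searched. Each sequence is on the strand of the gene, 5′ to 3′, ending at the base before the RefSeq start in GRCm38.p6, with TTTNNCGC or its reverse complement in capitals. *E2f7* is at chr10:110745189-110745438 (plus strand), *E2f3* at chr13:29986064-29986313 (minus), *Dtl* at chr1:191575545-191575635 (minus), *Mcm5* at chr8:75109259-75109508 (plus) and *Mcm6* at chr1:128359706-128359955 (minus).
E2f7: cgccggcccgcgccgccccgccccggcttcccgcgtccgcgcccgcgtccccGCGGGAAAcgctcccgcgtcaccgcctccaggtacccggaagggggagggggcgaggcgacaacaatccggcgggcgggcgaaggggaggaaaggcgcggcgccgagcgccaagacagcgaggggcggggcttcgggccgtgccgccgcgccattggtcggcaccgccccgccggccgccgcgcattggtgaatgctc
E2f3: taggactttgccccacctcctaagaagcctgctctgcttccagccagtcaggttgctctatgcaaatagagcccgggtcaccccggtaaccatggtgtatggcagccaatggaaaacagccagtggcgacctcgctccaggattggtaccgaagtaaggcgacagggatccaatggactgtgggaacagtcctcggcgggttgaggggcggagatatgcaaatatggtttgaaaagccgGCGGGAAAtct
Dtl: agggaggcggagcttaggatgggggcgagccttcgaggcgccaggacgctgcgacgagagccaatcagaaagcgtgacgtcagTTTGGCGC
Mcm5: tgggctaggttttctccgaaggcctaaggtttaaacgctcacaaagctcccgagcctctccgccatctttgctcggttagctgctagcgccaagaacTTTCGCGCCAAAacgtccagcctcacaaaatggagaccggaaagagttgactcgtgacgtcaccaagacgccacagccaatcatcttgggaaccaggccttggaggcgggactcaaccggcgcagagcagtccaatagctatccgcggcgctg
Mcm6: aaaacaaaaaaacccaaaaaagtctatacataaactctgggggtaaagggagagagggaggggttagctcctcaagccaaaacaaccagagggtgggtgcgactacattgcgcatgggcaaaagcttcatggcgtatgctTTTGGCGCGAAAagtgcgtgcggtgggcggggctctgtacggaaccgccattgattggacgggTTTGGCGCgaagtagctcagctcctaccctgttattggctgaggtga
In *Dtl* the match ends at the base before the start, and in *E2f3* it begins 11 bases before it. *Mcm5* and *Mcm6* hold overlapping matches on both strands, and *Mcm6* a further match nearer the start. None of these 5 stretches overlapped a listed peak.

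Some of the counts may hold reads of neighbours. Exons of 14 members, 7 of them called, overlap exons of a gene on the opposite strand in GENCODE vM21, and the sources used here do not say whether counting used strand, so such reads cannot be told apart. Among protein-coding neighbours the overlap is largest for *Gins2*, of whose 3900 exonic bases 2758 are shared with *Gse1* (log2 fold change -0.10, adjusted p = 0.425), and for *Chaf1a*, which shares 1862 of 5535 with *Ubxn6* (log2 fold change -0.32). The most abundant neighbour was *Eif4a2*, at a mean of 105115 normalised counts (log2 fold change 0.27), which shares 175 of the 1307 exonic bases of *Rfc4*. *Ints8*, at 10912.5 (log2 fold change 0.04), shares 336 of the 3200 of *Ccne2*. The part of such reads in the changes was not tested. *Tyms* has a pseudogene, *Tyms-ps*, at a mean of 19.1 normalised counts, and 2 pseudogenes of *Pcna* are annotated, whose reads could be split with the parent gene.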

How the data were processed

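RNA-seq and ATAC-seq of 3 libraries per genotype were used. For RNA, the deposited values are a signal per gene and library, which the authors made by aligning to mm10 with HISAT2 2.2.1, counting with featureCounts and dividing by DESeq2 size factors. Dividing by the step of each library gave whole reads for 100% of values, at a tolerance of 0.01. For ATAC-seq the deposited values are means per genotype of log2 read concentrations, which the authors made with Bowtie2, MACS2, DiffBind and HOMER, and no values per library are given. Fold changes, errors and p values in the tables of the authors' own comparisons were not used.

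Genes with a mean normalised count of at least 10 were compared with limma 3.58.1 (R 4.3.3, trend, log2 of the normalised count plus 1), with Benjamini-Hochberg adjustment over 14459 genes and genotype as the only term. edgeR 4.0.16 called 1529 genes higher and 1012 lower on the recovered reads, and DESeq2 1.42.0 called 1462 and 960. Other alternatives changed the pseudocount, filter, scaling, trend, depth, fold limit and libraries. Gene positions and exons came from GENCODE vM21 and promoters from RefSeq.

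Every called member was to be given in each library, the other members by role, and up to 4 called genes with the largest change from each other list, while *E2f4*, the 5 lower origin and fork genes, the ratios, and *Ccne1*, *Cdt1* and *Pcna* by library were chosen after their values were seen. The members and lists were chosen with earlier results of these data known. Values of some genes of the other lists are not reported here.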

Additional observations from a re-analysis of the deposited data

How the results depend on the processing

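Across 17 alternative fits 18 to 24 members were called higher and 0 lower, 28 to 33 had an adjusted p under 0.05 by limma, edgeR or DESeq2 with Benjamini-Hochberg adjustment, and the median log2 fold change was 0.47 to 0.59. Leaving out 1 library at a time gave 18 to 22 called, 18 of them without WT replicate 1 or UTX TCD replicate 3. A fold limit of 1 left 7 called and one of log2(1.5) left 17. Of the 20 called genes 18 were called in all 17 fits, the others being *Mcm4* and *Gins2*.

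Scaling to the same sum called 24, among them *Mcm3*, *Mcm5*, *Gins1* and *Lig1*, and reversed *Pcna* to 0.0117 and *Rfc2* to 0.0228, with a median over all genes of 0.06. *Rfc4* lay between -0.0527 and 0.0916 when 1 library was left out, reversing to -0.0512 without WT replicate 1 and to -0.0527 without UTX TCD replicate 3. The cause was not tested. Replicate numbers as a block gave 20, 31 and 0.53. Residuals of libraries with the same number had correlations of 0.305, -0.2 and 0.0897 across genes, so the numbers were not used as pairs. Of 29 listed peaks 22 had means over 0.5 apart and 5 lay within 1000 bases of a start.

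The shallowest library had 61512402 reads. With all libraries drawn down to its depth 21 members were called higher, *Gins1* among them at 0.54.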
